A study of Homo sapiens with 2 samples.

Results

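The BTG and TOB genes encode a small family of antiproliferative proteins. The 5 members described here are BTG1, BTG2, BTG3, TOB1 and TOB2, taken by gene symbol from a table of 18377 measured genes. Of the 5, 4 were measured, each by 1 probe (BTG1, Entrez gene 694; BTG3, 10950; TOB1, 10140; TOB2, 10766). BTG2 (7832) carried no probe in the platform annotation used here, alone or shared with another gene, so it has no value. The members were proposed with results of these same arrays in view, among them the value of BTG1, and all values below are therefore a description without a test.

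The arrays came from K562, an established line of human leukaemia cells driven by the BCR-ABL1 fusion kinase. Imatinib, which blocks that kinase, was given to both cultures at 2 µM for 6 h. The first was labelled as grown with erythropoietin, or EPO, the hormone of red cell production. The second carried no mention of EPO and is taken, from the growth protocol, as grown without it. Each culture gave total RNA for 1 whole-transcript Affymetrix Gene 1.0 ST array, so there are 2 groups of 1 array and no replicates. K562 cells without imatinib were not analysed here.

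Proteins of this family share an N-terminal BTG domain, through which they bind the catalytic deadenylase subunits of the CCR4-NOT complex. CCR4-NOT shortens the poly(A) tails of messenger RNAs, and BTG and TOB proteins bring it to its targets and stimulate that step. BTG1 and BTG2 are known for holding cells in quiescence and for roles in blood cell differentiation. TOB1 and TOB2 also bind the cytoplasmic poly(A)-binding protein through their longer C-terminal part, and BTG3 is known as an antagonist of E2F1.

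The deposited values are read as log2 deviations from a baseline for each probe, though that baseline is not stated. They say how far a transcript lay from that baseline on each array, not how abundant it was, so the presence of K562 markers could not be checked by level. The measured erythroid markers fixed for that purpose (5 of 6) differed between the arrays by -0.040 to 0.81. Both measured T and B cell markers stood at -0.67 and -0.45, and the monocyte and granulocyte markers (3 of 3) lay between -0.35 and 1.05. The marker at 1.05 was the only one of all these to reach 2-fold. The arrays did not spread equally around the baseline: the standard deviation over 28869 probes was 0.134 with EPO and 0.431 without EPO, and 82.6% of genes lay farther from the baseline on the array without EPO. What part this has in the differences below was not tested. The difference for a gene is its log2 value with EPO minus its log2 value without EPO, in which a baseline shared by both arrays cancels. A gene is called higher or lower when that difference reaches 2-fold (1 on the log2 scale).

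The upstream sequences of the measured members are shown first, as a description. Each is the 250 bases before an annotated transcription start, from RefSeq on GRCh38.p14, written 5′ to 3′ on the strand of the gene. Capitals mark matches to any of 6 motifs searched on both strands: the FOXO motif GTAAACA, the core of the cAMP response element TGACG, the CCAAT box CCAAT, the TATA box TATAAA, the GC box GGGCGG and the STAT5 consensus TTCNNNGAA. No match overlapped another in these windows.
BTG1, chr12:92145847-92146096, minus strand: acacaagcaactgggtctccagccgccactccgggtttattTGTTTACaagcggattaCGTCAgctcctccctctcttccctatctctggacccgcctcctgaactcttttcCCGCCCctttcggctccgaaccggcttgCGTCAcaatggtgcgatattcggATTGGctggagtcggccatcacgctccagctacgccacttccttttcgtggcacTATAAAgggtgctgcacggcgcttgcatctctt
TOB1, chr17:50866355-50866604, minus strand: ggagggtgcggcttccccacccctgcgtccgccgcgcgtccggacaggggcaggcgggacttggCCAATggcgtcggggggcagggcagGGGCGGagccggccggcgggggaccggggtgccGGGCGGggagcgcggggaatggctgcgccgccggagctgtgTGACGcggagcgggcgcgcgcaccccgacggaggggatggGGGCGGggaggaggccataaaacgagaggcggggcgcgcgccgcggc
TOB2, chr22:41446802-41447051, minus strand: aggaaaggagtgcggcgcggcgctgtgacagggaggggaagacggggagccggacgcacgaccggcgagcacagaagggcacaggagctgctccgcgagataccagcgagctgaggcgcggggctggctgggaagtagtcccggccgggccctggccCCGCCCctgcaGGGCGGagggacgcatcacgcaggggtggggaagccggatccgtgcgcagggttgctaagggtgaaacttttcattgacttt
BTG3, chr21:17612902-17613151, minus strand: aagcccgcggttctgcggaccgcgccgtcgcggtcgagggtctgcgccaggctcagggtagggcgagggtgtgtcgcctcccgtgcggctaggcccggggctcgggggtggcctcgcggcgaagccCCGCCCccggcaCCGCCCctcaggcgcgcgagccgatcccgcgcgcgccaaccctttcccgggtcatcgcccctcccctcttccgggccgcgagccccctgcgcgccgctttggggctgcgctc

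The BTG1 window held 6 matches of 5 of the motifs. The FOXO motif, read on the opposite strand, began 209 bases before the start, the cAMP response element core stood at 192 and 110, a GC box at 138, a CCAAT box at 87 and a TATA box at 33. Of 35116 RefSeq windows of the same length, 2.98% held the FOXO motif, 21.2% the cAMP response element core, 42.6% a GC box, 32.0% a CCAAT box and 10.7% a TATA box. The TOB1 window shown held 3 GC boxes, a CCAAT box and 1 cAMP response element core. The TOB2 and BTG3 windows held 2 GC boxes each and no other searched motif. The STAT5 consensus, found in 6.57% of all windows, was in none of the 4 shown. A second annotated start of TOB1 (chr17:50867979-50868228, not printed) held no match to any of the 6 motifs. The windows also differed in base composition. G and C made up 56.4% of the BTG1 window, close to the median of 58% over all windows, against 68.4% for TOB2, 78.4% for BTG3 and 80.4% for TOB1. A match is a description of these letters and shows no binding. The motifs were chosen with earlier results of these data known. Whether they bear on the differences between the arrays was not tested.

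**Figure D1:**
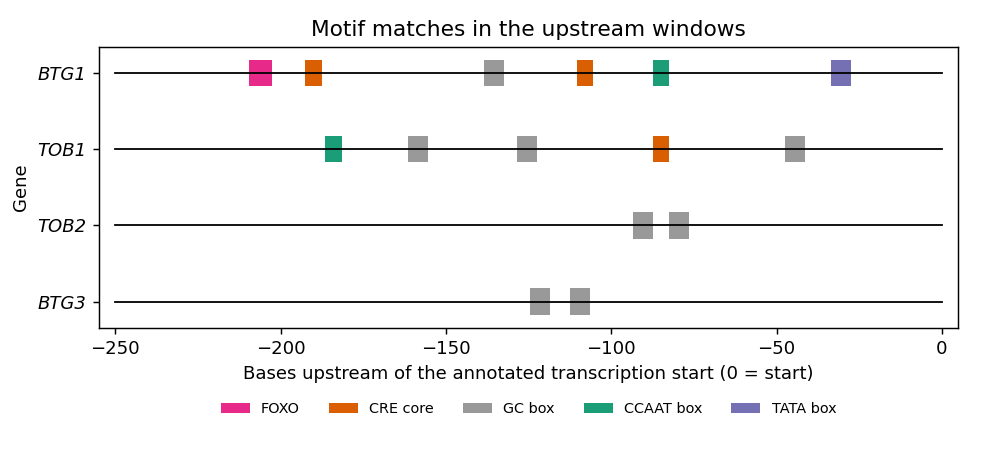
Motif matches in the 250 bases before the annotated starts of BTG1, TOB1 (the start shown in the text), TOB2 and BTG3. The x axis is the distance from the start in bases, and each coloured block is 1 match; BTG1 is the gene of the 4 with FOXO and TATA matches, while TOB2 and BTG3 carry GC boxes alone.

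The differences of BTG1 and TOB1 lay below 0, and those of TOB2 and BTG3 above 0. By the 2-fold rule BTG1 alone is called lower and BTG3 alone higher. BTG1 had a log2 value of -0.51 with EPO and 0.98 without EPO. It lay below the baseline on the first array and above it on the second. Opposite signs on the 2 arrays were common, at 83.1% of all genes. The difference of -1.49 for BTG1 is 2.81-fold lower with EPO and was the 83rd lowest of 18377 genes. In such bulk samples, fewer cells of a type and less RNA per cell cannot be told apart. TOB1 stood at -0.21 with EPO and 0.41 without EPO, a difference of -0.62 (1.54-fold lower) that did not reach 2-fold and ranked 696th from the lowest. For both genes the array without EPO was the one farther from the baseline.

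BTG3 ran the other way. Its log2 value was 0.30 with EPO and -0.78 without EPO, so it lay above the baseline on the first array and below it on the second. The difference of 1.09 is 2.12-fold higher with EPO and ranked 832nd from the highest. TOB2 stood at 0.11 with EPO and -0.49 without EPO, a difference of 0.60 (1.51-fold higher) that did not reach 2-fold. BTG4, a family gene outside the 5 that is known from egg cells, lay near the baseline on both arrays, at -0.051 with EPO and 0.063 without EPO, with a difference of -0.11.

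**Figure D2:**
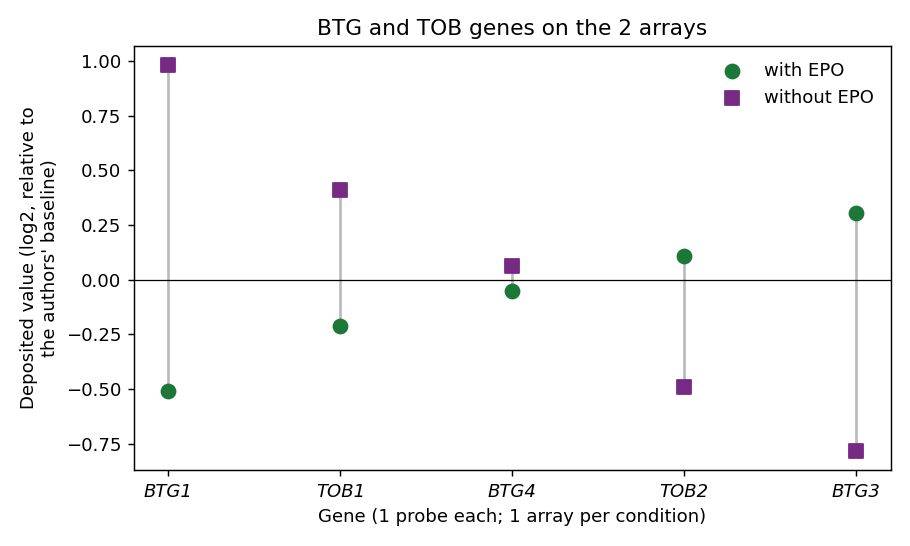
Deposited values of the 4 measured members and BTG4, read as log2 deviations from a baseline, with EPO (circles) and without EPO (squares). There is 1 array each and so no error bars. BTG1 and TOB1 lie below 0 with EPO and above 0 without it, TOB2 and BTG3 the reverse, and the points of BTG4 nearly meet.

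Of the 4 measured members, 1 (BTG1) was at least 2-fold lower with EPO and 1 (BTG3) at least 2-fold higher. Over all 18377 genes the shares were 0.898% lower and 6.19% higher by that rule. A difference as low as that of BTG1 was uncommon among these genes, with 0.446% of them below it. The members were proposed with that value in view, so its place is a description alone. Of all genes, 95.5% lay below BTG3, 82.3% below TOB2 and 3.78% below TOB1. The median of the 4 was -0.013, beside -0.047 for all genes. That median describes no member, since 2 lay below 0 and 2 above it.

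**Figure D3:**
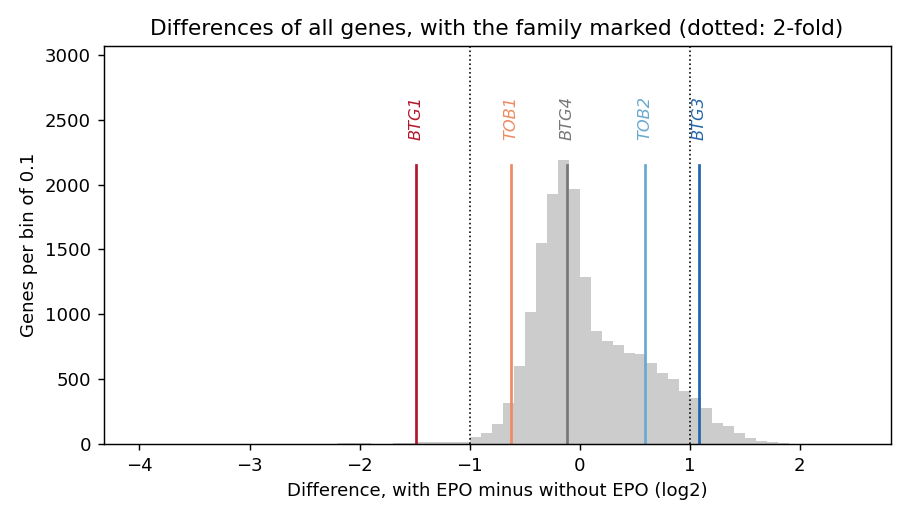
Histogram of the log2 difference, with EPO minus without EPO, for 18377 genes in bins of 0.1, with coloured lines at the family genes and dotted lines at 2-fold. BTG1 lies in the thin left tail at -1.49, BTG3 in the broad right shoulder at 1.09 and BTG4 near the peak.

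Genes of general cell machinery lay mostly on the higher side of that distribution, though the make-up of its right shoulder was not examined. A class of 293 such genes chosen by symbol (proteasome, mitochondrial ribosome, respiratory chain, splicing, RNA polymerase II, nuclear pore and translation initiation) had a median difference of 0.50. A class of 480 genes of families silent in most tissues (odorant and taste receptors, vomeronasal receptors, defensins and keratin-associated proteins) had a median of -0.33. BTG1 lay below every machinery gene, and 0.417% of the silent genes were lower than BTG1. TOB1 lay within both ranges, with 2.39% of machinery genes and 18.8% of silent genes below it. BTG3 and TOB2 lay inside the machinery range, with 90.1% and 60.1% of that class below them. With the machinery median subtracted, BTG3 stood at 0.58 and was no longer 2-fold higher, TOB2 stood at 0.093, and TOB1 reached -1.13. With the median of the silent families subtracted, TOB1 stood at -0.29, BTG3 at 1.42 and TOB2 at 0.93. By the machinery scaling 2 of the 4 members were at least 2-fold lower and 0 higher, beside 7.66% and 0.593% of all genes. BTG1 stayed past 2-fold lower under each of the 3 scalings tried, between -1.99 and -1.16.

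Each member has a single probe, so its difference has no second probe to set beside it. Among the 685 genes with several probes, the gap between the highest and the lowest probe had a median of 0.18 and a 95th percentile of 1.16 on the log2 scale of the difference. This spread covers probes within the array pair, not cultures. The members' differences lay between 0.49 apart, for BTG3 and TOB2, and 2.58 apart, for BTG3 and BTG1, with TOB1 and BTG1 0.87 apart and TOB2 and TOB1 1.22 apart.

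The genes whose pair of values lay nearest to that of a member were sought among protein-coding genes, by straight-line distance over the 2 arrays. Nearest to BTG1 were IER5, an immediate-early response gene, at a distance of 0.028 with a difference of -1.45, CLC, which encodes a galectin of eosinophils and basophils, with -1.37, and the uncharacterised LOC107987020 with -1.33. Nearest to BTG3 were UEVLD with a difference of 1.08, the cohesin subunit gene SMC3 with 1.10 and PCMTD2 with 1.08. A pair of arrays gives only a pair of values per gene, so a near match is common where genes are dense, as around BTG3.

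Genes beside the members on their chromosomes were both lower than 0, by less, for BTG1, and stood on either side of 0 for the other members. Only 45.4% of all genes lay above 0, so a value below it is common. The nearest measured genes on either side of BTG1 (chromosome 12) were DCN, encoding the matrix proteoglycan decorin, at -0.37 and CLLU1-AS1 at -0.36. TOB1 (chromosome 17) lay between WFIKKN2 at -0.56 and SPAG9 at 0.38. TOB2 (chromosome 22) lay between the transcription factor gene TEF at -0.35 and PHF5A, a splicing factor subunit, at 0.81. BTG3 (chromosome 21) lay between CXADR, the coxsackievirus and adenovirus receptor gene, at -0.45 and C21orf91 at 0.45. These are log2 differences with EPO minus without EPO, like all those that follow.

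Of 12 genes of CCR4-NOT, the deadenylase complex that BTG and TOB proteins act through, all measured, 3 were at least 2-fold higher and 0 lower, with a median of 0.52, beside 6.19% and 0.898% of all genes. The 3 were CNOT8, at 0.13 with EPO and -1.17 without EPO (difference 1.30), CNOT7, at 0.25 and -0.97 (1.22), and CNOT6, at 0.24 and -0.96 (1.20). CNOT7 and CNOT8 are the alternative deadenylase subunits that the BTG domain binds, and CNOT6 is a catalytic subunit of the other kind. CNOT9, which is not catalytic, stood next at 0.98, CNOT6L, the catalytic relative of CNOT6, at 0.69, the scaffold CNOT1 at 0.48 and TNKS1BP1, the 1 gene of the list below 0, at -0.21. These 4 are named after their values were seen. With the machinery median subtracted, the CCR4-NOT median was 0.021 and 0 of the 12 reached 2-fold. CNOT8 then stood at 0.80, CNOT7 at 0.72 and CNOT6 at 0.70. Over all genes that scaling put 0.593% at least 2-fold higher and 7.66% lower, so a count of 0 among 12 is near those shares.

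The lists of other poly(A) tail and decay genes also had positive medians as deposited, as did the machinery class, at 0.50. Of 13 poly(A)-binding proteins and other deadenylases, 1 was at least 2-fold higher and 0 lower, with a median of 0.31. That count is near the share of all genes, 6.19%. ANGEL2 stood at 1.03, ANGEL1 and the mitochondrial poly(A) phosphodiesterase PDE12 at 0.90 each. The poly(A)-binding protein gene PABPC1 stood at 0.77 and the deadenylase PARN at -0.55, both named after their values were seen. Of 15 decapping and 5′ decay factors, 1 was at least 2-fold higher, LSM5 at 1.04, and 0 lower, with a median of 0.48. This count too is near the share of all genes. LSM4, another subunit of the LSM ring that binds deadenylated ends, stood at 0.84 and the decapping enhancer EDC3 at 0.82. Both medians turned negative with the machinery median subtracted, to -0.19 and -0.028. ANGEL2 at 0.52 and LSM5 at 0.53 were then within 2-fold, while PARN reached -1.06, beside 7.66% of all genes at least 2-fold lower.

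**Figure D4:**
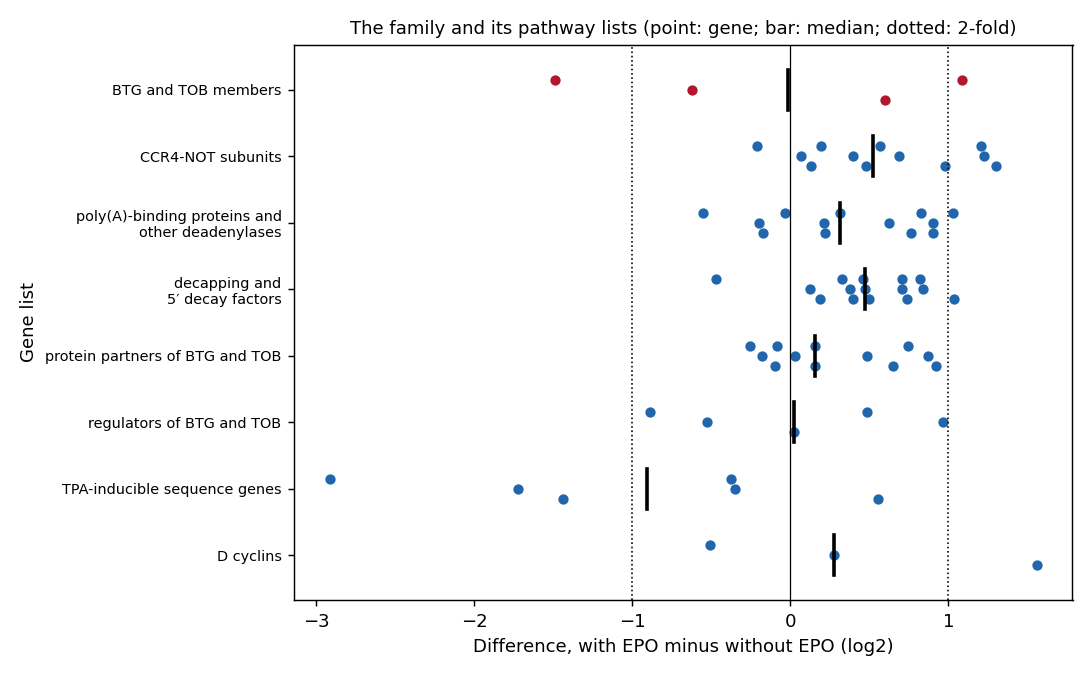
Log2 differences, with EPO minus without EPO, of each measured gene (points) in the family (red) and in its pathway lists (blue), with black bars at list medians and dotted lines at 2-fold. The family spans from -1.49 to 1.09, most CCR4-NOT and decay genes lie above 0, and 3 of the TPA-inducible sequence genes lie past 2-fold on the lower side. Of the machinery class 79.2% lie above 0, and of all genes 45.4%.

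Protein partners of the family, other than the deadenylases, were all within 2-fold as deposited. The 12 had a median of 0.16. Over all genes, 6.19% were at least 2-fold higher and 0.898% lower, so a count of 0 among 12 is near those shares. CPEB4, of the CPEB family of RNA-binding proteins through which TOB proteins reach target messages, stood at 0.92, with 0.51 on the array with EPO and -0.41 on the other. The BTG partner HOXB9 stood at 0.87 and CHEK1, the checkpoint kinase that binds BTG3, at 0.74. PRMT1, the arginine methyltransferase bound by BTG1 and BTG2, stood at 0.16, named after its value was seen, as was E2F1 at -0.18.

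Among known regulators, the FOXO genes split. FOXO3, whose protein is known to activate BTG1 in erythroid cells, stood at -0.36 with EPO and 0.52 without EPO, a difference of -0.89. FOXO1 stood at -0.53 and FOXO4 at 0.49. SKP2, the ubiquitin ligase subunit that targets TOB1 for degradation, stood at 0.97, and MAPK3, which encodes the ERK1 kinase known to phosphorylate TOB1, at 0.025. None of these 5 reached 2-fold as deposited, beside 6.19% of all genes higher and 0.898% lower. With the machinery median subtracted, FOXO3 came to -1.39 and FOXO1 to -1.03, both past 2-fold lower, and FOXO4 to -0.016. By that scaling 7.66% of all genes were at least 2-fold lower. SKP2 passed 2-fold higher with the median of all genes or of the silent families subtracted. Those scalings put 7.17% and 15.3% of all genes at least 2-fold higher.

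BTG2 belongs by history to the TPA-inducible sequences, immediate-early genes found by their induction with a phorbol ester, where it is TIS21. The other 6 genes of that set were measured. Of them, 3 were lower with EPO by 2-fold or more and 0 higher, with a median of -0.91, beside 0.898% and 6.19% of all genes. The transcription factor EGR1 stood at -0.98 with EPO and 1.94 without EPO (difference -2.92). ZFP36, which encodes an RNA-binding protein that also recruits CCR4-NOT, stood at -0.40 and 1.33 (-1.72), and FOS at -0.28 and 1.16 (-1.44). The prostaglandin synthase gene PTGS2 stood at -0.37, the nuclear receptor gene NR4A1 at -0.35 and the transcriptional coregulator gene IFRD1 at 0.55. BTG1, which is not of this set, thus had a difference between those of FOS and ZFP36. These immediate-early differences were known when the list was drawn up.

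The D cyclins, of which cyclin D1 is known to be repressed by BTG and TOB proteins, were split: CCND2 stood at 1.56, CCND3 at 0.28 and CCND1 at -0.51. With the machinery median subtracted, CCND1 came to -1.01, past 2-fold lower, and CCND2 to 1.06. By that scaling 7.66% of all genes were at least 2-fold lower and 0.593% higher.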

How the data were processed

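Total RNA of K562 cells was measured on 2 Affymetrix Gene 1.0 ST arrays, 1 per group, per the labels' protocols. The authors deposited 1 table of 28869 probes, whose values are read as log2. Not given in the sources used here are the handling of background, the summarisation, normalization and software, the baseline and the logarithm's base. Centring on a baseline is read from the values: 631 probes (2.19%) had values of opposite sign whose sum was within 1e-05 of 0. Fold changes and the 2-fold rule rest on base 2.

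Probes were named through the platform annotation (19310 with 1 gene symbol, 1752 with several, 7807 not listed) and current symbols through RefSeq by Entrez ID. Probes of a gene were averaged. The precision is limited by the number of arrays, and no test or p-value is possible. The code that computes the differences was checked on simulated data with known shifts, which says nothing of the spread between cultures. The members, lists, motifs and gene classes were chosen with earlier results of these data known. Named are all members and BTG4, list genes past 2-fold or among the 3 largest differences of a list, all genes of lists of up to 7, and the 3 nearest patterns. A further planned list and some genes are not reported here. Alternatives were other fold thresholds, scalings, probe rules and the mean. Scripts ran in Python 3.11.15 with pandas 2.3.3 and NumPy 2.4.6.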

Additional observations from a re-analysis of the deposited data

How the results depend on the processing

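Each result was recomputed under the alternatives, and 16 of the 66 alternatives were probe rules, which cannot move a gene with 1 probe. Of the other 50 values, 35 kept their direction and their side of 2-fold or, for counts, stayed within 1.5 times. The direction of BTG1, TOB1, TOB2 and BTG3 held under every scaling tried. TOB2 and the CCR4-NOT median kept theirs but came near 0, to 0.093 and 0.021, with the machinery median subtracted. With the machinery median subtracted, TOB1 came to -1.13 and BTG3 to 0.58, so that 2 members were at least 2-fold lower and 0 higher, while TOB1 came to -0.29 with the silent median subtracted. At a threshold of 1.5-fold, 2 members were lower and 2 higher (4.65% and 18.1% of all genes). At 4-fold, 0 were lower and 0 higher (0.229% and 0.00544% of all genes). The machinery scaling turned the medians of the poly(A)-binding and deadenylase list to -0.19, decay factors to -0.028, protein partners to -0.35, regulators to -0.48 and D cyclins to -0.23. The TPA-inducible list reached -1.41 under that scaling and -1.04 by its mean. Counts of list genes under each scaling were added after seeing the data: with the silent median subtracted, 5 of 12 CCR4-NOT genes, 5 of 13 poly(A)-binding and deadenylase genes, 6 of 15 decay factors and 3 of 12 partners were at least 2-fold higher. The split of all genes moved too, to 0.593% higher and 7.66% lower with the machinery median subtracted, and to 15.3% and 0.55% with the silent median. No paired analysis was possible because each group has 1 array and no test was made. The alternatives planned for 1 further list were not run. No array could be left out. How far signal over background limits these values is unknown, since no intensities were analysed here.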
